A study of Homo sapiens with 5 samples.

Results

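The genes encoding integrin subunits and laminin chains were compared between NCI-H209 cells, a line established from a human small cell lung cancer, grown alone and grown with human brain microvascular endothelial cells (HBMECs). Members were taken by gene symbol, as the integrin α, integrin β and laminin chain genes of the deposited gene table, and 37 of the 64837 entries counted are described here: 18 ITGA, 8 ITGB, 5 LAMA, 4 LAMB and 2 LAMC genes. RNA-Seq was run on 3 control libraries and on 2 libraries of NCI-H209 cells that shared medium with HBMECs across a Transwell membrane for 24 h (termed co-cultured), and the comparison asked how the endothelial cells altered the expression profile of the tumor cells. All libraries came from 1 line, and the cells of the insert were not sequenced here. Nothing in the labels says whether the libraries of a group were separate cultures, so the p-values measure the spread between these libraries, which may be technical.

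Integrins are cell surface receptors made of 1 α and 1 β subunit that must pair before they leave the endoplasmic reticulum, and the pair sets the ligand: α3β1, α6β1, α7β1 and α6β4 bind laminins, α1β1, α2β1, α10β1 and α11β1 bind collagens, α5β1, α8β1, αIIbβ3 and the αV pairs bind proteins with an Arg-Gly-Asp (RGD) motif, and the β2 pairs are found on leukocytes. Laminins are secreted trimers of 1 α, 1 β and 1 γ chain and form a major sheet of the basement membrane. The trimer that holds LAMA3 and LAMB3 is the anchoring laminin of epithelia and is bound by α3β1 and α6β4, whereas the α5β2γ1, α2β2γ1 and α4 trimers carry the γ1 chain of vessels, muscle and nerve.

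The libraries held 15457071 to 19157348 reads on genes in the sense direction, so that 3 counts, taken here as the detection floor, equal 0.154 to 0.198 CPM (reads of a gene scaled to a common library size). The share of reads left unmapped was higher after co-culture (15.9% and 16.8%) than in control (8.13% to 8.48%), and the part of this gap in the results below was not tested. Control replicate 1 stood apart from the other control libraries: the chi-square per degree of freedom over genes was 17.9 and 18.1 against them, 6.34 between control replicates 2 and 3, and 4.59 between the co-cultured libraries. The listed neuroendocrine markers had uneven levels. INSM1 had 498.5 to 636.5 CPM. NCAM1 had 466.8 to 542.5 CPM in control and 639.9 and 648.7 CPM in co-cultured libraries. NEUROD1 (1.06 to 1.88 CPM) was low, and CHGA had at most 1 count in any library. POU2F3, a subtype marker of small cell lung cancer that is on the list but is not itself neuroendocrine, was at 0.885 to 1.43 CPM. Summed over 20 endothelial markers, the level was 17.97 to 29.1 CPM in control libraries and 23.8 and 24.3 CPM in co-cultured libraries. The defining endothelial genes PECAM1, CDH5 and VWF were tested and not called (mean CPM 0.484, 0.411 and 5.69 in control against 0.855, 0.555 and 5.35), and TIE1 had at most 1 count. Of the 20, 10 were tested and 2, ESAM and ICAM2, were called higher, beside 18.4% of all tested genes. ESAM (3, 4 and 6 counts in control against 21 and 14) passed the low-count filter through the co-cultured libraries alone, so its call gives no support. Of the 20, 8 had at most 3 counts in every library, 2 of them at 0. Other endothelial markers were concentrated in 2 control libraries. FLT1 had 30, 28 and 0 counts in control against 1 and 1 with HBMECs, TEK had 31, 24 and 0 against 6 and 3, and KDR had 37, 27 and 2 against 12 and 4, none of them called. Of 7 stromal markers, the same control libraries held PDGFRB (34, 30 and 0 counts against 1 and 2), DCN (27, 39 and 0 against 3 and 1) and LUM (20, 19 and 0 against 0 and 2), also not called. COL3A1 (22, 22 and 3 against 3 and 9), COL1A2 (33, 23 and 3 against 16 and 22) and COL1A1 (45, 38 and 19 against 25 and 21) were less concentrated and not called. RGS5 was called higher after co-culture. Of the reads over FLT1, TEK, KDR and PDGFRB, 55.9%, 44.3%, 35.4% and 43.2% lay on the opposite strand, mostly in these control libraries. With these 2 control libraries left out, which leaves 1 control library, all 9 members called below kept their direction. The groups of each of the 9 did not overlap with all libraries in, so leaving out control libraries could hardly reverse them. Their kept direction therefore gives no support, and the part of these marker reads in the results below was not tested. In bulk RNA of this kind, a change in the share of cells that express a gene and a change in RNA per cell cannot be told apart.

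Co-cultured cells carried more RNA for the integrin subunits α1, α3, α5, αV, αM and αX and for the laminin β3 chain, and less for the integrin subunits α2 and α6. A filter on low counts left 27 of the 37 genes to be tested. In edgeR's quasi-likelihood test, at a p under 0.05 after Benjamini-Hochberg adjustment across 20360 genes, 7 of the 27 rose (25.9%, beside 18.4% of all tested genes): ITGA1, ITGA3, ITGA5, ITGAM, ITGAV, ITGAX and LAMB3. ITGA2 and ITGA6 fell, which is 2 of 27 (7.41%, beside 15.0% of all tested genes), and 18 were not called. Without control replicate 1 the counts were 9 higher and 4 lower. Calls over all genes rose as well, to 9897 of 19974 tested in place of 6809 of 20360. Control replicates 1 and 2 both left out, an alternative chosen after seeing the data, left 1 control library. It gave log2 fold changes of 3.24 for ITGA5 and 6.05 for LAMB3. A second criterion for differentially expressed genes (DEGs) was a log2 fold change beyond 1 with an unadjusted p under 0.05, in which the fold change threshold of the study's methods was read here as a log2 value. By it, 4 of the 27 were upregulated (ITGA5, ITGAM, ITGAX and LAMB3), beside 5.44% of all tested genes, and 0 were downregulated, beside 5.01%. LAMB3 and ITGAX passed the filter through the co-cultured libraries alone, where they are high, so their part in these counts gives no support. When each library had to hold 10 counts or more, neither was tested and 2 upregulated DEGs, ITGA5 and ITGAM, were left. The co-cultured libraries lay above every control library for 10 of the 27 members, beside 29.4% of all tested genes, and below every control library for 4, beside 30.0%. The median log2 fold change was 0.085 over the 27 members and -0.03 over all tested genes. Among these 27 genes, 8 of 14 α integrins, 1 of 3 laminin β chains, 0 of 5 integrin β genes and 0 of 4 laminin α genes were called. Over all tested genes, 18.4% were called higher and 15.0% lower. The 8 include ITGAX and the 1 laminin β chain is LAMB3, so neither call gives support here.

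**Figure D1:**
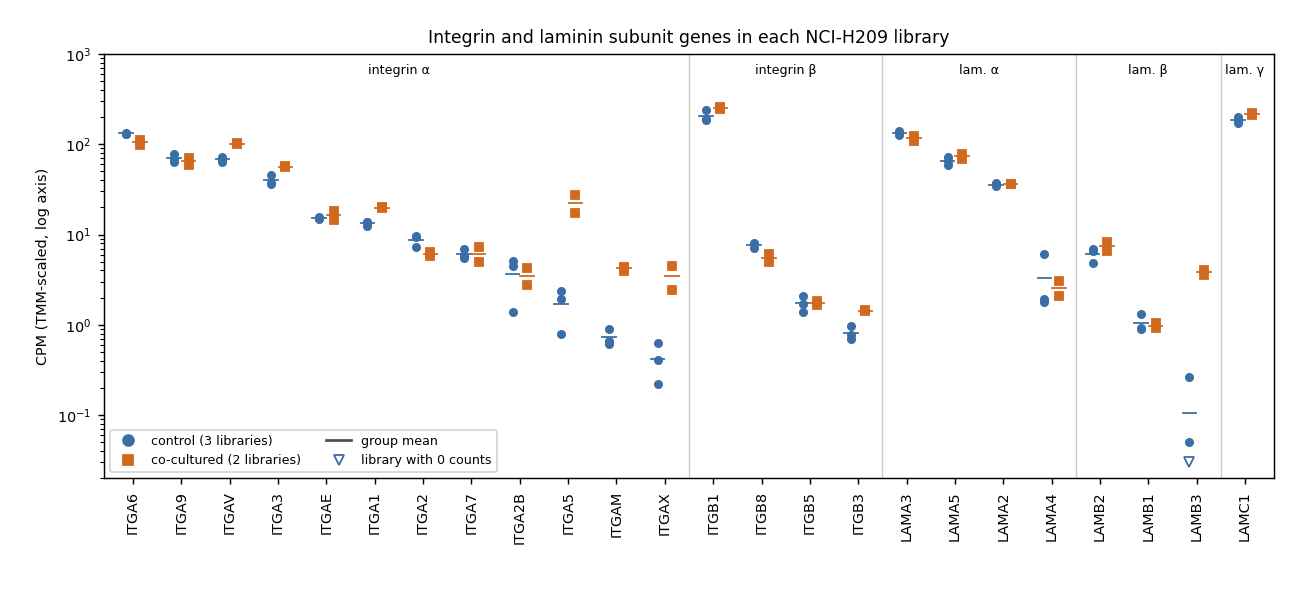
Level of the 24 integrin and laminin genes with at least 1 mean CPM in either group, on a log axis in TMM-scaled CPM, with 1 point per library (blue circles, 3 control; orange squares, 2 co-cultured), short lines at the group means and an open triangle for a library with 0 counts. ITGA5, ITGAM, ITGAX and LAMB3 show co-cultured points far above the control points, while ITGB1, at 185.5 to 257.6 CPM, stays the highest gene of either group.

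**Figure D2:**
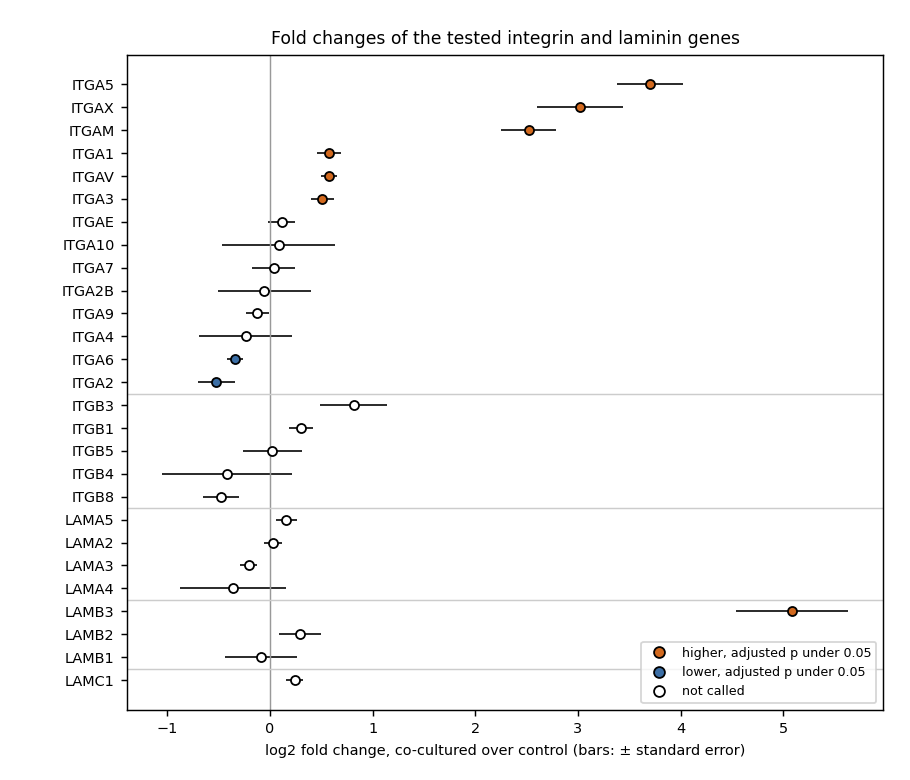
Log2 fold change (co-cultured divided by control) of the 27 tested genes, with bars for 1 standard error, grouped by family; filled points passed an adjusted p of 0.05 (orange higher, blue lower) and open points did not. LAMB3 at 5.09 and ITGA5 at 3.70 lie farthest to the right, and the 2 filled points left of 0 are ITGA6 at -0.34 and ITGA2 at -0.52.

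The upstream sequences of the 2 DEGs with the largest log2 fold changes, LAMB3 and ITGA5, are shown first. RefSeq (GRCh38.p14) listed 26 of the 37 genes in its promoter table, with 3 start sites for LAMB3 and 1 for ITGA5, and ITGAX was not among them. The 250 bases before each start were searched on both strands for an AP-1 motif (TGANTCA), a hypoxia response element core (NACGTG) and a GC box (GGGCGG, read as CCGCCC on the other strand). Bases that lie in an exon of GENCODE release 29 are not shown. Capitals mark the matches, and all sequences run 5′ to 3′ on the minus strand, the strand of both genes.
LAMB3, start 1, chr1:209652467-209652675: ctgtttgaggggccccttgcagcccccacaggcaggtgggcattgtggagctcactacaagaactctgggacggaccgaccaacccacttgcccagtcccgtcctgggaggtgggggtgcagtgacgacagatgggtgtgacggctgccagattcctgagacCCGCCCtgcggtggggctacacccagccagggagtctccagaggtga
LAMB3, start 3, chr1:209651395-209651624: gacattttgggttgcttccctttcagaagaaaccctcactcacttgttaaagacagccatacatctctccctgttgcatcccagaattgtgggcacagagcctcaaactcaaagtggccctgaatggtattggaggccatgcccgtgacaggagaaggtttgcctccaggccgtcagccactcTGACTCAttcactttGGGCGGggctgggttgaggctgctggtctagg
ITGA5, chr12:54419461-54419516: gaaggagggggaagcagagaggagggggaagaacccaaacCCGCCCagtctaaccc
The window before LAMB3 start 3, which lies inside the gene between annotated exons, held an AP-1 match beginning 67 bases before the start and a GC box beginning 52 bases before it. Neither motif overlapped the other. The window of LAMB3 start 2 overlaps that of start 1 and held the same GC box. Of 35116 promoters of the same length, 6.57% held the AP-1 motif, 18.5% the hypoxia response element core and 42.6% the GC box. Among the 26 listed members, the AP-1 motif was found before LAMA3 and LAMB3, the hypoxia core before ITGA6 and ITGA11, and the GC box before 14 members. These matches are descriptions of letters and not of bound sites.

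Of the α subunits that recognize RGD ligands, ITGA5 and ITGAV rose and ITGA2B was not called. ITGA5 (ENSG00000161638.10, GRCh38 chr12:54395261-54419460, minus strand) encodes the α subunit of the main fibronectin receptor, α5β1. It was at 0.798, 1.94 and 2.36 CPM in the control libraries and at 27.2 and 17.1 CPM in the co-cultured ones. The lowest co-cultured value was thus well above the highest control value, and the co-cultured libraries differed from each other by more CPM than the control level itself. The log2 fold change was 3.70 ± 0.32 (SE) with an adjusted p of 9.35e-05 by edgeR's quasi-likelihood test, and 2.88 with unstranded counts. ITGAV, whose αV subunit pairs with 5 different β subunits and binds vitronectin, fibronectin and latent TGF-β, was at 64.1, 72.7 and 66.2 CPM in control and at 102.2 and 99.4 CPM in co-cultured libraries. It rose by 0.58 ± 0.08 on the log2 scale (adjusted p = 0.000943, same test), a small and tight change between groups that did not overlap. ITGA2B, the platelet αIIb subunit, was at 1.38, 4.53 and 5.12 CPM against 4.26 and 2.77 CPM. The control libraries enclosed both co-cultured values, and the gene was not called. ITGA8, the α subunit of the nephronectin receptor, had 6 counts over the control libraries and 0 over the co-cultured ones. That count of 0 leaves the ratio of co-cultured to control at up to 1.43 by the exact 95% counting interval, so no difference was detectable at this depth. Such intervals and floors cover counting error only.

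Of the β partners of αV, β1, β3, β5 and β8 were tested and none was called. ITGB3, the β3 subunit of αVβ3 and αIIbβ3, was at 0.691, 0.774 and 0.973 CPM in control and 1.42 and 1.45 CPM in co-cultured libraries. The groups did not overlap, but the log2 fold change of 0.81 ± 0.33 did not pass (adjusted p = 0.0833, edgeR's quasi-likelihood test). Of the exon length of ITGB3, 51.6% is shared on the same strand with another annotated gene, and reads there are not assigned to either, so its level is understated in all libraries. ITGB5, the β5 subunit of a vitronectin receptor, was at 1.38, 1.71 and 2.10 CPM against 1.86 and 1.65 CPM and was not called. ITGB8, whose αVβ8 pair activates latent TGF-β, was at 7.98, 7.08 and 7.94 CPM against 4.92 and 6.14 CPM. Its co-cultured values lay below every control value, yet the change of -0.48 ± 0.17 missed the threshold with an adjusted p of 0.0623 by the same test. ITGB6, the epithelial β6 subunit of another TGF-β-activating pair, was too low to test, with 8 counts over 3 control libraries and 17 over 2 co-cultured libraries, a ratio of 3.59 in CPM (exact 95% counting interval 1.47 to 9.60), which compares the libraries and not the conditions. Another annotated gene shares 20.6% of the exon length of ITGB6 on the same strand, so its level is understated as well.

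ITGB1, the common β1 subunit that 12 α subunits share, was the most abundant member per length in both groups. It was at 241.3, 185.5 and 188.9 CPM in control and at 257.6 and 248.2 CPM in co-cultured libraries. Both co-cultured values exceeded the control values, but control replicate 1 came close to them. The log2 fold change of 0.30 ± 0.12 had an adjusted p of 0.0741, and without control replicate 1 it was 0.44 with an adjusted p of 1e-05, both by edgeR's quasi-likelihood test.

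Among the laminin-binding α subunits, the most abundant one fell and another rose. ITGA6 encodes α6, the partner of β1 and β4 and a widely used epithelial and stem cell marker. It was at 134.5, 130.4 and 131.1 CPM in control libraries and at 98.9 and 110.0 CPM in co-cultured libraries. The control libraries lay close together and above both co-cultured libraries, and the log2 fold change was -0.34 ± 0.08 (adjusted p = 0.0106, edgeR's quasi-likelihood test). Without co-cultured replicate 1, the adjusted p was 0.161. ITGA3, the α3 subunit of the laminin receptor α3β1, was at 45.4, 36.6 and 37.0 CPM against 57.8 and 55.2 CPM. It rose by 0.51 ± 0.11 on the log2 scale with an adjusted p of 0.00638 in the same test, and leaving out either co-cultured library gave adjusted p values of 0.0693 and 0.0514. ITGA7, the α7 subunit known from muscle, was at 5.48, 6.91 and 5.74 CPM against 7.27 and 5.02 CPM, so that the groups overlapped and the gene was not called. ITGB4, the β4 subunit with the long cytoplasmic tail of hemidesmosomes, was at 0.372 to 1.02 CPM in control and 0.219 and 0.793 CPM in co-cultured libraries and was not called. More reads fell on the opposite strand of ITGB4 than on its own, 63.9% of the total, so a count without strand would not measure this gene.

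Of the collagen-binding α subunits, ITGA1 and ITGA2 moved in opposite directions although they are neighbours. ITGA1 lies 30.1 kb from ITGA2 on chromosome 5, and both are read from the plus strand. ITGA1, whose α1β1 prefers the collagen of basement membranes, was at 12.3, 13.9 and 13.7 CPM in control and 20.1 and 19.6 CPM in co-cultured libraries. It rose by 0.58 ± 0.12 on the log2 scale (adjusted p = 0.00496, edgeR's quasi-likelihood test), with adjusted p = 0.0615 when co-cultured replicate 1 was left out. ITGA2, whose α2β1 prefers fibrillar collagen, was at 7.28, 9.57 and 9.37 CPM against 6.34 and 5.81 CPM. It fell by 0.52 on the log2 scale with an SE of 0.18 and an adjusted p of 0.0482, just inside the threshold, and the call was lost under 8 of 12 alternatives, among them DESeq2 (adjusted p = 0.104). ITGA10 had 0.358 to 1.38 CPM in control and 0.595 and 1.26 CPM in co-cultured libraries and was not called, and ITGA11 had at most 2 counts in any library.

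Of the leukocyte-type subunits, 2 α genes rose and their β partner stayed near the floor. ITGAM (ENSG00000169896.17, chr16:31259967-31332892, plus strand) encodes CD11b, the α subunit of complement receptor αMβ2. It was at 0.904, 0.664 and 0.614 CPM in control and at 3.99 and 4.43 CPM after co-culture. The log2 fold change was 2.52 ± 0.27 (adjusted p = 0.000236, edgeR's quasi-likelihood test). ITGAX (ENSG00000140678.16, chr16:31355134-31382997, plus strand) encodes CD11c, used as a dendritic cell marker. It was at 0.638, 0.221 and 0.410 CPM against 4.48 and 2.44 CPM, a log2 fold change of 3.02 ± 0.42 with an adjusted p of 0.000874 by the same test. ITGAX passed the low-count filter through the co-cultured libraries alone, so its call gives no support. For both genes every co-cultured library was above every control library, in ITGAM with the co-cultured values close together and in ITGAX with co-cultured replicate 1 clearly the higher. The genes follow each other on chromosome 16, with 22.2 kb between ITGAM and ITGAX and 10.3 kb between ITGAX and ITGAD, whose αD subunit also pairs with β2. ITGAD had 1 count over the control libraries and 6 over the co-cultured ones, a ratio of 10.1 with an exact 95% counting interval of 1.23 to 466. ITGAL, the α subunit of the lymphocyte receptor LFA-1, had 10 counts over the control and 9 over the co-cultured libraries (ratio 1.52, interval 0.546 to 4.16). ITGB2, the β2 subunit that all 4 of these α subunits need, had 3, 5 and 11 counts in control and 9 and 6 counts in co-cultured libraries, or 0.160 to 0.563 CPM and 0.492 and 0.396 CPM. It failed the filter, and its ratio of 1.33 had an exact 95% counting interval of 0.630 to 2.77. The leukocyte marker PTPRC (CD45) had at most 1 count in any library, and the summed level of 6 leukocyte markers was 1.55 to 2.29 CPM in control and 1.97 and 1.85 CPM in co-cultured libraries. ITGAE, the αE subunit of lymphocytes that home to epithelia, was at 15.6, 14.9 and 15.1 CPM against 14.6 and 18.4 CPM and was not called. Its only partner, ITGB7, had 1 count over the control and 9 counts over the co-cultured libraries (ratio 15.2, interval 2.10 to 666), and 96.7% of the reads over ITGB7 lay on the opposite strand.

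ITGA9, the α9 subunit that binds tenascin-C and is one of the more abundant α subunits here, was at 78.5, 63.2 and 69.3 CPM against 58.7 and 70.6 CPM. The groups overlapped and it was not called. ITGA4, its closest relative, which binds VCAM1 and fibronectin, had 0.512 to 0.774 CPM in control and 0.437 and 0.595 CPM in co-cultured libraries and was not called either.

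The pairing of subunits was described on the scale of CPM per kilobase of exon, which allows a comparison between genes. ITGB1 made up 96.7% ± 0.801 (SD, n = 3) of the summed β integrin level in control and 97.1% ± 0.161 (n = 2) in co-cultured libraries. The 12 α subunits that can pair with β1 summed to 1.31 ± 0.158 times the β1 level in control and 1.14 ± 0.0412 times in co-cultured libraries. The 9 that pair with β1 alone summed to 0.463 ± 0.0372 and 0.462 ± 0.000342 times, so their total relative to β1 differed by less than the spread between control libraries while its members changed. ITGA6 took 42.5% to 42.8% of all α integrin without HBMECs, against 29.2% and 32.0% with them. ITGAV took 16.2% to 18.8% and, with HBMECs, 24.0% and 23.0%, and ITGA3 took 7.95% to 9.60% and then 11.4% and 10.7%. ITGA5 held 0.218% to 0.662% in control, against 6.92% and 4.30% with HBMECs. In each of these 4 shares the groups did not overlap. The smallest p that 3 against 2 libraries allow in an exact permutation test is 0.1. Groups also lay apart in the levels of many tested genes, 29.4% with co-cultured above and 30.0% below. Lack of overlap in 4 picked shares therefore gives no support. Several other α shares did not overlap either. That of ITGA9 was 16.3% to 19.7% in control and 13.7% and 16.2% with HBMECs, although its CPM overlapped, as shares of a family depend on each other.

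**Figure D3:**
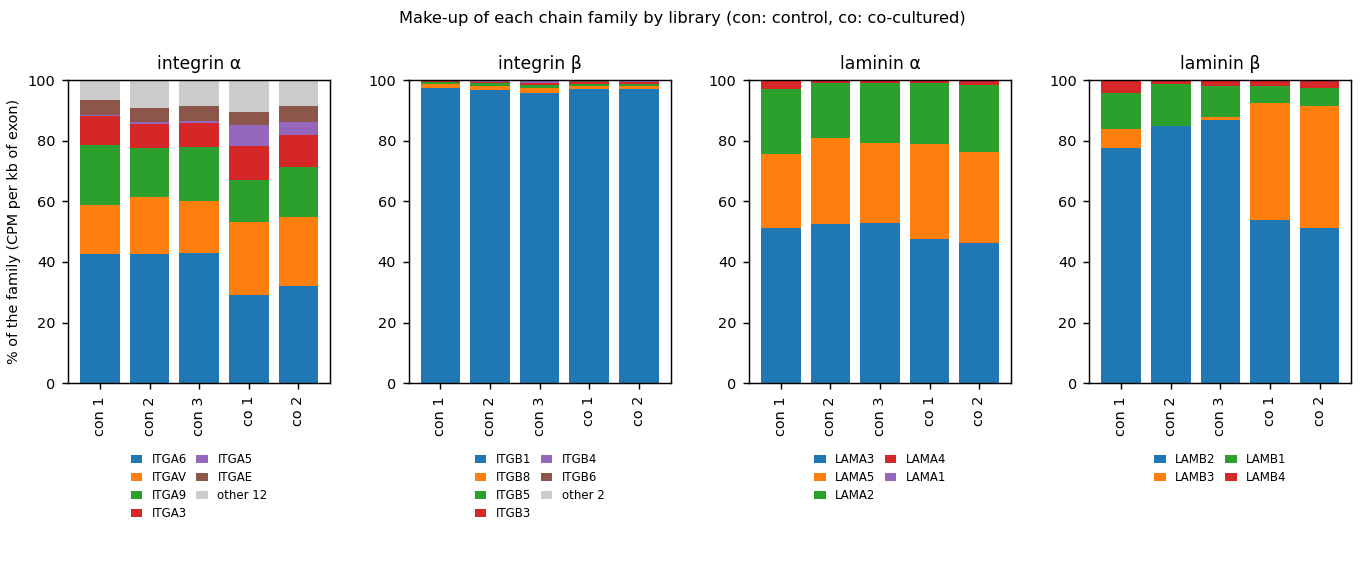
Make-up of 4 chain families in each library, as the percentage of the family's summed CPM per kilobase of exon (bars stack to 100%; con, control; co, co-cultured). ITGA6 takes 42.6% of the integrin α bar on average in control and 30.6% in co-cultured libraries, ITGB1 fills nearly the whole integrin β bar, and LAMB3 takes 39.5% of the laminin β bar in co-cultured libraries against 2.39% in control.

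Of the 24 known integrin pairs, 10 had both subunits at 1 mean CPM or more in control and 12 in co-cultured libraries. By ligand, these were 4 and then 6 of 8 RGD pairs, 3 of 4 laminin pairs, 2 of 4 collagen pairs and 1 of 3 pairs of the α4 and α9 group in both groups, and 0 of 5 leukocyte pairs. The 2 pairs that were added, αVβ3 and αIIbβ3, both turned on ITGB3, which crossed 1 CPM without being called. As the level of ITGB3 is understated in all libraries, the crossing and the added pairs depend on reads that were not assigned. In every β1 pair the α subunit was the lower of the partners. For α5β1 the α5 level was 0.224 ± 0.106 per kilobase in control and 2.92 ± 0.938 in co-cultured libraries, beside 34.1 and 42.1 for β1. For αMβ2 and αXβ2 the lower partner in the co-cultured libraries was β2, at 0.0653 ± 0.00994 per kilobase against 0.740 for ITGAM and 0.490 for ITGAX. In α6β4 the β4 subunit was lower by far, at 0.0961 ± 0.0498 per kilobase in control and 0.0748 ± 0.0600 in co-cultured libraries, beside 20.2 and 16.0 for α6. Transcript levels set these orders, and surface pairs were not measured.

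**Figure D4:**
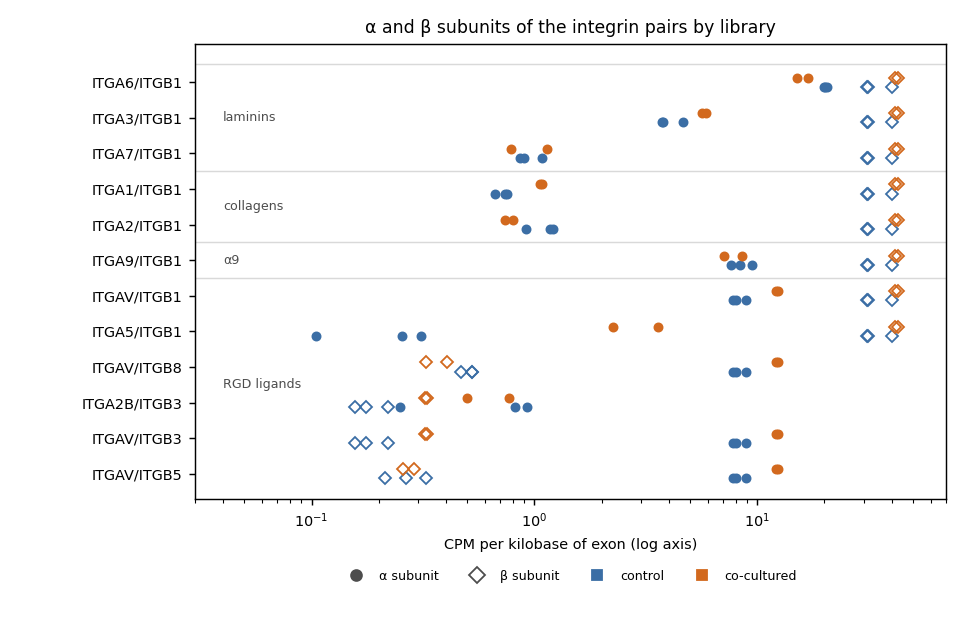
Level of the α subunit (filled circles) and β subunit (open diamonds) of the 12 integrin pairs with at least 1 mean CPM of both subunits in a group, in CPM per kilobase of exon on a log axis, with 1 mark per library (blue, control; orange, co-cultured). The β1 diamonds lie to the right of every α partner, the αV circles lie to the right of the β3, β5 and β8 diamonds, and the α5 circles move from 0.105 to 0.311 in control to 2.26 and 3.59 in co-cultured libraries.

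Among the laminin β chains, 1 gene rose. LAMB3 (ENSG00000196878.14, chr1:209614870-209652466, minus strand), the β3 chain of the anchoring laminin of epithelia, had 5, 0 and 1 counts in control and 75 and 54 counts in co-cultured libraries, or 0.266, 0 and 0.0512 CPM against 4.10 and 3.57 CPM. The co-cultured values were close together and far above control, where replicate 1 held 5 of the 6 reads. The log2 fold change was 5.09 ± 0.55 with an adjusted p of 0.000243 by edgeR's quasi-likelihood test, and 6.84 without control replicate 1. LAMB3 passed the low-count filter through the co-cultured libraries alone, so its call gives no support. LAMA3, the α3 chain that assembles with β3, was at 126.5, 139.5 and 135.2 CPM against 121.9 and 109.5 CPM. Its co-cultured values lay below every control value, and the change of -0.21 ± 0.08 did not pass (adjusted p = 0.0869, same test).

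LAMC1, the γ1 chain of most laminins, was at 198.3, 178.4 and 173.3 CPM in control and at 209.6 and 223.7 CPM in co-cultured libraries, above every control library, with a log2 fold change of 0.24 ± 0.09 that missed the threshold (adjusted p = 0.0578, edgeR's quasi-likelihood test). LAMC3, the γ3 chain, had at most 3 counts in any library. The remaining α chains did not separate the groups. LAMA2, the merosin α2 chain of muscle, was at 37.1, 34.1 and 35.9 CPM against 36.4 and 36.7 CPM. LAMA5, the widespread α5 chain of mature basement membranes, was at 59.2, 72.7 and 65.5 CPM against 78.3 and 68.6 CPM. LAMA4, the α4 chain of vessel walls, was at 6.06, 1.94 and 1.79 CPM against 2.08 and 3.04 CPM. Its high control value came from replicate 1 alone, and without that library the log2 fold change went from -0.36 to 0.44, not called in either case. LAMA1, the α1 chain of the embryo, had 0 counts in 4 libraries and 2 counts in co-cultured replicate 2.

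The other laminin β chains were low and not called. LAMB2, the β2 chain of synaptic and kidney laminins, was at 4.89, 6.91 and 6.61 CPM against 8.36 and 6.61 CPM. LAMB1, the most widespread β chain elsewhere, was at 0.904, 1.33 and 0.922 CPM against 1.04 and 0.925 CPM, and 85.6% of the reads over it lay on the opposite strand. LAMB4 was below the filter at 10 and 11 counts (ratio 1.86, exact 95% counting interval 0.716 to 4.88).

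Per kilobase, the laminin β chains were scarcer than the α chains. They summed to 1.07 ± 0.138 in control and 2.08 ± 0.271 in co-cultured libraries, beside 17.4 ± 0.593 and 16.8 ± 0.992 for the α chains (SD, n = 3 and n = 2, CPM per kilobase). The summed α level was 16.4 ± 1.69 times the β level in control and 8.12 ± 0.582 times in co-cultured libraries. LAMB3 took 0% to 6.18% of the β chains in control, against 38.6% and 40.4% with HBMECs, while LAMB2 took 77.6% to 86.8% and then 53.7% and 51.1%. These groups of shares did not overlap, beside 29.4% (co-cultured above) and 30.0% (below) of all tested genes by level. Shares of a family depend on each other, and the CPM of LAMB2 itself overlapped between groups. In 7 of the 13 trimers listed, the chain with the lowest level was a β chain in both groups, LAMB1 in 4 and LAMB2 in 3. None of the 13 holds LAMB3, so this count could not follow its change. LAMB3 was below its α partner LAMA3, at 0.0225 per kilobase in control and 0.818 in co-cultured libraries, beside 9.11 and 7.88 for LAMA3. Counting reads without regard to strand would put LAMB2 at 50.8% and 40.5% of the β chains, and LAMB3 at 1.41% and 30.0%, since the reads opposite LAMB1 would then count for it.

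Genes that act with these subunits were taken from 4 lists written by hand, and up to 4 called genes with the smallest p are named for each. Of 35 integrin ligands outside the laminins, 23 were tested, 9 rose and 2 fell, beside 18.4% and 15.0% of all tested genes (the background of every list here), with a median log2 fold change of 0.13 beside -0.03 over all tested genes. TGFB1, whose latent form is bound by αV pairs, rose by 1.63 ± 0.24 (adjusted p = 0.00113, edgeR's quasi-likelihood test, as for all adjusted p values of these lists). FN1, fibronectin, the ligand of α5β1, was at 13.2, 13.3 and 7.94 CPM in control and 30.4 and 26.0 CPM in co-cultured libraries, a rise of 1.30 ± 0.20 (adjusted p = 0.00143). Most reads over these 2 genes lay on the opposite strand, 87.9% for TGFB1 and 63.9% for FN1. Opposite FN1 they were at 37.9, 33.6 and 32.7 CPM in control and at 24.2 and 28.3 CPM in co-cultured libraries. NPNT, nephronectin, rose by 0.47 (adjusted p = 0.00224), and JAM3, a junction protein bound by αMβ2, rose by 0.67 (adjusted p = 0.00249). ICAM1, a ligand of the β2 integrins, is named here after its values were seen. It was at 0 to 0.319 CPM in control and 1.804 and 2.312 CPM in co-cultured libraries and rose by 3.34 ± 0.60 (adjusted p = 0.00305). ICAM1 passed the filter through the co-cultured libraries alone, so its call and its part in the 9 that rose give no support.

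Of 19 other basement membrane genes, 15 were tested, 4 rose and 3 fell (background 18.4% and 15.0%), with a median of -0.28. NID1, nidogen, which links the laminin γ1 chain to type IV collagen, was at 79.0, 53.6 and 53.0 CPM in control and 116.0 and 138.1 CPM in co-cultured libraries and rose by 1.04 ± 0.16 (adjusted p = 0.00159). COL4A2 fell by 1.01 (adjusted p = 0.00724), as did HSPG2, perlecan, by 0.40 (adjusted p = 0.00898), while FREM2 rose by 0.53 (adjusted p = 0.0144).

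Of 20 laminin receptors outside the integrins and the genes that glycosylate or anchor dystroglycan, 19 were tested, 6 rose and 4 fell (background 18.4% and 15.0%), with a median of 0.05. The syndecans SDC1 and SDC4, proteoglycans that bind laminin and fibronectin, rose by 1.29 ± 0.11 (adjusted p = 9.91e-05) and by 0.54 ± 0.08 (adjusted p = 0.00116). UTRN, the dystrophin relative utrophin, rose by 0.89 (adjusted p = 0.000256), and POMT1, an O-mannosyltransferase of dystroglycan, fell by 0.64 (adjusted p = 0.00219). Of 28 genes for integrin activation and linkage to actin, 25 were tested, 10 rose and 4 fell (background 18.4% and 15.0%), with a median of 0.13. FERMT2, kindlin-2, which binds β tails, rose by 1.06 ± 0.11 (adjusted p = 0.000244), and the small GTPase RAP1A rose by 0.73 (adjusted p = 0.000581). RSU1, a partner of the ILK complex, rose by 0.82 (adjusted p = 0.00209), whereas PARVG, the parvin known from blood cells, went from 247.6 to 275.3 CPM in control to 121.8 and 142.6 CPM and fell by 0.96 ± 0.10 (adjusted p = 0.000186).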

How the data were processed

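RNA-Seq libraries of NCI-H209 cells, 3 control and 2 co-cultured, were rRNA-depleted and directional. The authors deposited whole-number read counts per gene for each library, as unstranded and as strand-specific columns, in the layout of STAR's gene counts. Their processing notes name CASAVA 1.8, STAR 2.6.1b, DESeq2 and GRCh38. The gene identifiers are those of GENCODE release 29. A deposited table of the authors' own comparison (normalized values, fold changes and p-values) was read for gene identifiers and symbols alone. No column of another series was present (0).

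Counts of the sense strand were filtered with filterByExpr, scaled by TMM and tested with edgeR 4.0.16 (limma 3.58.1, R 4.3.3), co-cultured against control, without covariates, with Benjamini-Hochberg adjustment over 20360 genes. The biological coefficient of variation was 10.2%. CPM are TMM-scaled, and levels per kilobase use the union exon length. Alternatives were median-ratio and upper-quartile scaling, DESeq2 1.42.0, 2 other filters, a replicate block, unstranded counts, other lengths and leaving out each library; leaving out control replicates 1 and 2 together was added after seeing the data. Lists were the integrin ligands, basement membrane genes, other laminin receptors, integrin activity genes and neuroendocrine, endothelial, fibroblast and pericyte and leukocyte markers. Members above 3 counts are named with values, and those above 1 mean CPM with every library. Of 38 genes that match the symbol rule, 1 is not reported here, nor is 1 marker. The members, lists and tests were chosen with earlier results of these data known.

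Of the marker lists not fully described above, 2 of 7 tested genes of the neuroendocrine list, which includes POU2F3, were higher and 1 lower. This compares with 18.4% and 15.0% of all tested genes, the background of both lists here. The log2 fold changes were 0.57 for SYP, 0.37 for NCAM1 and -0.35 for DLL3. The neuroendocrine list had summed levels of 1262 to 1541 CPM in control and 1468 and 1505 CPM in co-cultured libraries. Of 7 fibroblast and pericyte markers, RGS5 was higher and 6 were not called, with summed levels of 10.8 to 22.6 CPM and 17.8 and 20.9 CPM, of which RGS5 made up 9.29 to 13.0 CPM and 15.1 and 17.1 CPM. The median log2 fold change of these 7 genes was -1.19.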

Additional observations from a re-analysis of the deposited data

Results flagged for a closer look

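Reads on the opposite strand, which no comparison above used, were flagged for 2 members. In both, they were more abundant in the co-cultured than in every control library. The flag asked for a minimum count in both co-cultured libraries, so members entered through that group and their number gives no support. At lower counts, opposite-strand reads of ITGAX and LAMA3 also lay above every control library. The share over all genes was not computed. Opposite ITGA6 they were at 2.02, 1.55 and 1.18 CPM in control and 4.15 and 2.58 CPM in co-cultured libraries, a mean of 3.37 against 1.58 CPM. ITGA6 itself fell, and antisense genes, among them ITGA6-AS1, share exon bases with it. Opposite LAMA5 they were at 13.3, 9.23 and 8.50 CPM in control and 17.4 and 18.4 CPM in co-cultured libraries, a mean of 17.9 against 10.3 CPM. The antisense gene LAMA5-AS1 and the protein-coding gene ADRM1 overlap LAMA5 exons on that strand. The differences were not tested.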

How the results depend on the processing

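Of 318 log2 fold changes recomputed under 12 alternatives, 272 kept their direction and side of the threshold, 13 lost a call, 10 gained one and 23 changed sign, none of the last in a called gene. The groups of every called gene did not overlap, so leaving out a library could hardly change its sign. ITGA5, ITGAM, ITGAV, ITGAX and LAMB3, 5 of the 9 called genes, kept the call under every one of the 12 that gave a value, with LAMB3 between 4.56 and 6.84 and ITGA5 between 2.88 (unstranded counts) and 4.03. With at least 10 counts in every library, ITGAX and LAMB3 were not tested and 2 members were upregulated DEGs. ITGAX and LAMB3 passed the filter of the main fit through the co-cultured libraries alone, so their kept calls give no support. The higher members numbered 5 to 9 under the 12 alternatives. The lower members, 2 as reported, numbered 1 with DESeq2, 1 with median-ratio scaling, 4 with upper-quartile scaling, 1 with unstranded counts and 0 to 4 when 1 library was left out. The 4 lower members without control replicate 1 included LAMA3 (-0.24) and ITGB8 (-0.45). Without that library 9897 genes were called in place of 6809, LAMC1 (0.30) and ITGB1 were called as well, and LAMA4 turned to 0.44. Without control replicates 1 and 2, chosen after seeing the data, 29 members were tested, with ITGA5 at 3.24 and LAMB3 at 6.05. Causes were not tested.

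The replicate block, pairing libraries by their number, gave 0 lower and 7 higher members, with ITGA6 at -0.34 (adjusted p = 0.0624) and ITGA2 at -0.46 (adjusted p = 0.180). Deviations of same-numbered libraries from their group means correlated at -0.114 and -0.067. With 2 co-cultured libraries these deviations mirror each other, so the values cannot decide whether the numbers are pairs. The main fit did not take them as pairs. Sign changes under the block were ITGA10 at -0.35, ITGA2B at 0.39, ITGA7 at -0.015 and ITGB4 at 0.036. Unstranded counts put ITGA2B at 0.088, and upper-quartile scaling, which moved the median of all genes from -0.03 to -0.11, put ITGA7 at -0.048, ITGB5 at -0.059 and LAMA2 at -0.045. Leaving out 1 library gave ranges of -0.57 to 0.56 for ITGA10, -0.43 to 0.27 for ITGA2B, -0.26 to 0.27 for ITGA7, -0.26 to 0.014 for ITGA9, -0.053 to 0.28 for ITGAE, -1.54 to 0.28 for ITGB4, -0.11 to 0.19 for ITGB5, -0.65 to 0.44 for LAMA4 and -0.18 to 0.11 for LAMB1.

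The share of LAMB3 among laminin β chains in co-cultured libraries was 30.0% with unstranded counts, 30.4% without division by length and 40.4% by coding length. That of ITGA6 among α integrins was 36.5% and 25.5% without division by length and 35.2% and 24.4% by coding length. That of ITGA5 in control was 0.912% with unstranded counts. Depth limits the 10 untested members, which have counting intervals and no replicate test.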
